A study of Mus musculus with 20 samples.

Results

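The genes described here encode the enzymes that turn glucose into pyruvate and lactate, the gate from pyruvate into the mitochondrion, the citrate cycle, and the oxygen sensors and hypoxia-response genes that are tied to them. They were chosen as a list of 38 symbols. Of these 37 were found among the 23382 gene symbols of the files, the exception being Pkm2, whose gene is listed as Pkm. Of the 37 genes, 35 were among the 11386 genes tested, which are those with at least 1 TPM (a level corrected for transcript length and library size) in at least 5 libraries. Eno1 and Ldhb were not.

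RNA was measured in 20 libraries of germinal centre B cells from mice, 5 in each of 4 groups. Every group, the controls included, carried Cgamma1Cre +/-, a Cre recombinase placed at an immunoglobulin heavy chain locus that is transcribed in activated B cells. Control libraries were wild type for Myd88 and mutant libraries carried Myd88L252P in 1 copy (+/-), a coding change in the adaptor of Toll-like receptors. Both cell types were gated on B220+FAS+GL7+. Centroblasts, which divide in the dark zone, were CXCR4+CD86-. Centrocytes, which compete for antigen in the light zone, were CXCR4-CD86+. No source used here gives the ages of the mice. Nor do the labels tie each library to a mouse of its own, and the p-values speak only of the spread between these samples, which may be technical.

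Glycolysis splits glucose into pyruvate in the cytosol. Lactate dehydrogenase can then reduce pyruvate to lactate, or the pyruvate dehydrogenase complex can convert it to acetyl-CoA for the citrate cycle in mitochondria. HIF-1, a transcription factor whose alpha subunit is marked for destruction by prolyl hydroxylases when oxygen is present, induces many glycolytic genes, and germinal centre light zones are known for hypoxic areas.

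The 6 germinal centre B cell markers reported here (Cd79a, Ptprc, Fas, Bcl6, Mef2b and S1pr2) were present in every library, with summed levels of 3279 to 4851 TPM. The sort could also be seen in the RNA. Cxcr4 was 546 to 622 TPM in control centroblasts and 277 to 324 in control centrocytes, and in mutants 234 to 507 and 147 to 180. Cd86 was 111 to 177 and 305 to 330 TPM in controls, and 85.2 to 129 and 188 to 308 in mutants. Centroblast mutant libraries 4 and 5 stood apart from the other 18: the summed share of 80 ribosomal protein genes was 12.4% and 17.0%, where the other libraries had 7.34% to 9.96%, and they had the fewest genes above 0, 12895 and 12719. For members called with all libraries, values that moved by over 1.5 times or lost the call without these 2 are given both ways.

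In control centroblasts the mean levels ran from 847 ± 133 TPM (SD, n = 5) for Ldha down to 0.425 ± 0.171 for Egln3 among the tested genes. Ldha, Pkm (735 ± 65.0), Aldoa (668 ± 89.9), Mdh1 (602 ± 25.0), Tpi1 (600 ± 84.7) and Mdh2 (538 ± 47.1) were the highest, so both the end of glycolysis and the malate dehydrogenases were abundant transcripts. Within isoenzyme families 1 member dominated. Aldoc made up 1.93% ± 0.297 of the aldolase RNA (Aldoa and Aldoc) and Pfkp 67.4% ± 1.41 of the phosphofructokinase RNA (Pfkl, Pfkm and Pfkp) in control centroblasts.

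**Figure D1:**
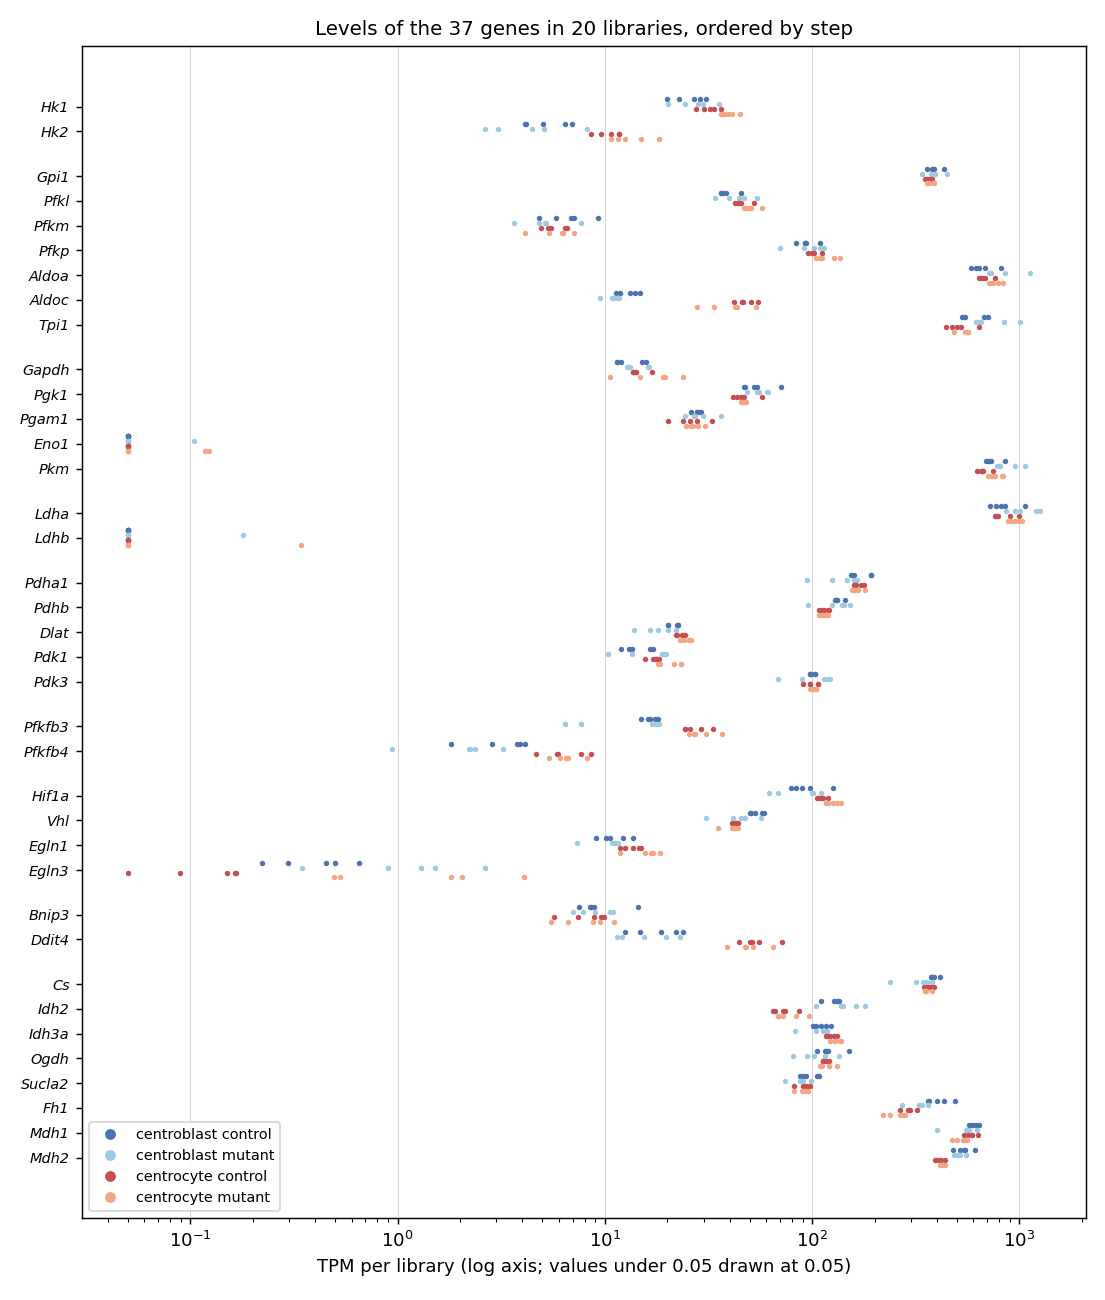
TPM of the 37 genes (rows, grouped by step from glucose phosphorylation at the top to the citrate cycle at the bottom) on a log axis, 1 point per library and 1 colour per group; values under 0.05 are drawn at 0.05. Eno1 and Ldhb sit at the left edge in nearly all libraries, and Aldoc, Hk2, Pfkfb3, Pfkfb4 and Ddit4 have both groups of centrocytes to the right of the centroblasts.

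Some of these levels cannot be taken at face value, because reads from genes with near-identical copies can be lost or shared out in counting. Of the 50-base windows of the longest coding transcript of Gapdh (GENCODE M21), 82.5% occurred in transcripts of other genes. The share was 72.2% for Eno1, 68.0% for Pgk1, 62.4% for Bnip3, 41.5% for Pgam1, 34.4% for Pkm, 30.3% for Pdhb, 27.0% for Ldhb and 25.3% for Gpi1. Gapdh, in most cells among the most abundant messages, was listed at 10.6 to 23.9 TPM here. Eno1 was listed at 0 in all libraries but 3 (0.104 TPM in centroblast mutant 4, 0.118 and 0.123 in centrocyte mutants 2 and 3), and Ldhb at 0 in all but 2 (0.180 in centroblast mutant 2, 0.342 in centrocyte mutant 5). Gm5506, which RefSeq gives as another name of Eno1b, a near copy of Eno1 that shares 70.5% of its windows, was 21.2 ± 3.89 TPM in control centroblasts and 17.6 ± 1.88 in control centrocytes, and 20.6 ± 3.24 and 18.9 ± 0.777 in mutants; it was looked at after the Eno1 values were seen. The levels of these genes are therefore uncertain, and the part of shared sequence in them was not tested. No window of Hk2, Aldoc, Pfkfb4, Ddit4, Idh2, Fh1, Mdh2, Vhl or Egln3 was shared, and 0.631% of those of Pfkfb3 were.

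The first comparison asks how centrocytes differ from centroblasts in control mice. A hexokinase gene, an aldolase gene, both genes for the regulators of phosphofructokinase and a stress-response gene were higher in centrocytes, while 3 genes of the citrate cycle were lower. Of the 35 tested genes 9 passed the test (limma on log2(TPM + 1), Benjamini-Hochberg adjusted p under 0.05 over all 11386 genes), 5 higher (Hk2, Aldoc, Pfkfb3, Pfkfb4 and Ddit4) and 4 lower (Vhl, Idh2, Fh1 and Mdh2). Over all genes 30.7% passed, 21.2% higher and 9.48% lower, so the share of members that passed was not above the background. The median log2 fold change was -0.03 over the 35 and 0.14 over all genes tested. In mutants 18 passed against a background of 61.5%, and there the balance of directions depended on the scaling (below).

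TPM has the same total, 1000000, in every library, so a few abundant genes can move all others. Median-of-ratios scaling, which sets the median gene level equal between libraries, moved the median of all genes from 0.14 to 0.01 in controls and from 0.34 to 0.02 in mutants. With it 11 members passed in controls (5 higher, 6 lower, against 18.2% and 17.4% of all genes), and in mutants the split of 13 higher and 5 lower (48.8% and 12.6% of all genes) became 5 higher and 16 lower (29.9% and 28.6%). That scaling called 35.6% of all genes in controls and 58.4% in mutants. Without centroblast mutants 4 and 5, whose values also enter the shared estimate of spread, 14 members passed in controls (9 higher and 5 lower, against 47.6% of all genes, 33.3% and 14.3%) and 18 in mutants (11 higher and 7 lower, against 50.7%, 35.8% and 14.9%). The members added in controls to those of the fit with all libraries were Hk1, Pfkl, Pdk1 and Hif1a, higher, and Pdhb, lower. All libraries of one zone lay above all of the other, within a genotype, for 5 genes upward and 6 downward in control centrocytes (26.5% of all genes, 17.0% and 9.51%), and for 10 and 4 in mutants (36.6%, 28.7% and 7.91%). The 5 higher and 3 lower genes that passed in both genotypes and with both scalings were Hk2, Aldoc, Pfkfb3, Pfkfb4 and Ddit4, and Idh2, Fh1 and Mdh2. Both genotypes were measured in separate libraries but in 1 fit. The 5 shared higher genes are 100% of those of controls and 38.5% of those of mutants, and the 3 shared lower genes 75.0% and 60.0%.

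**Figure D2:**
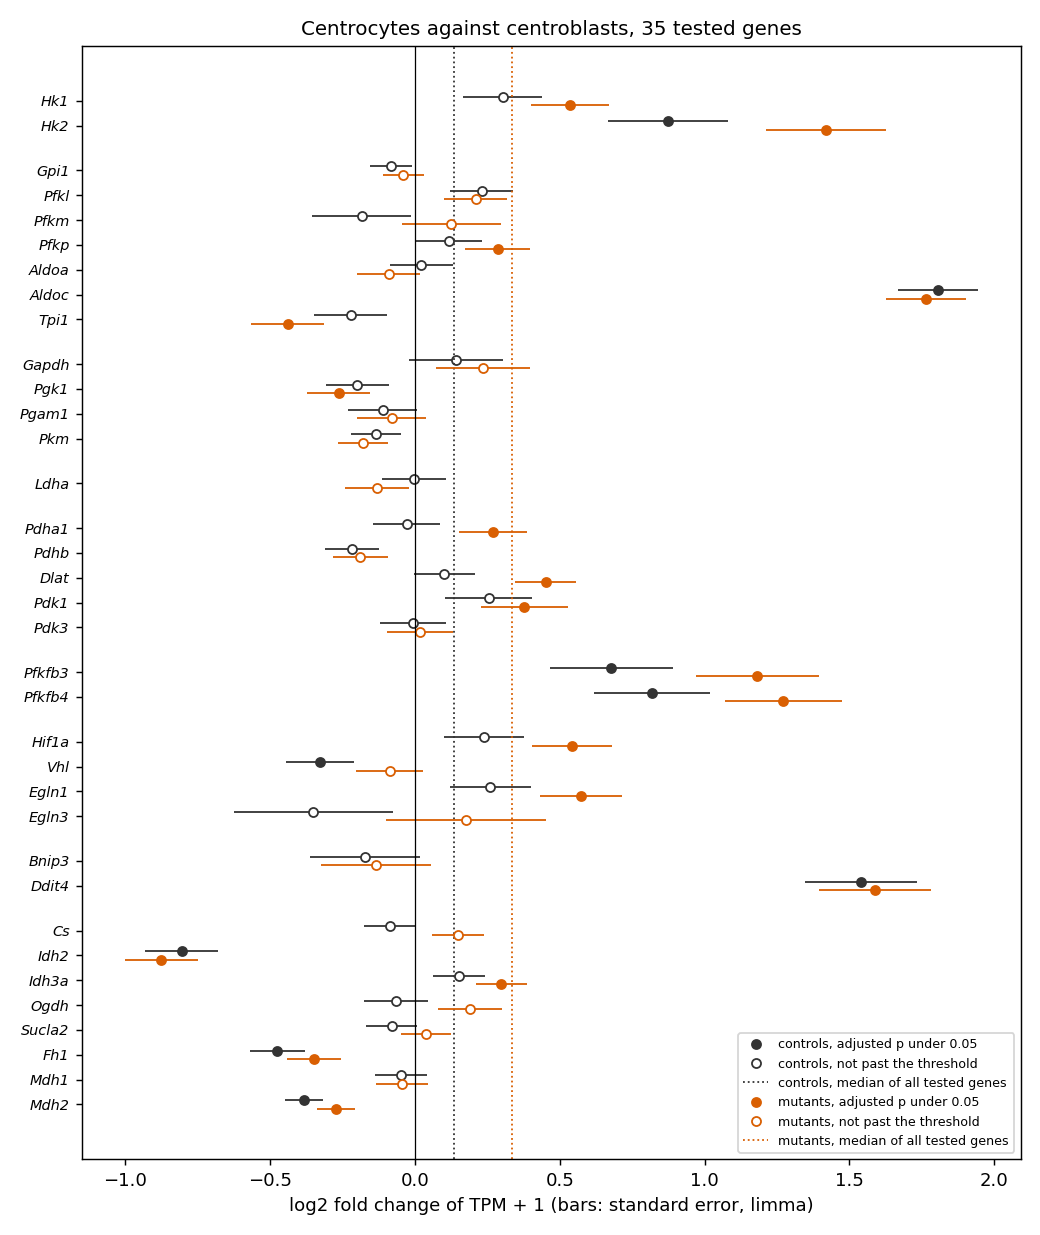
Log2 fold change of TPM + 1, centrocytes against centroblasts, for the 35 tested genes by step (rows), in controls (dark) and mutants (orange); bars are limma standard errors, filled points have an adjusted p under 0.05, and dotted lines mark the median of all tested genes (0.14 and 0.34). Aldoc (1.81 and 1.76) and Ddit4 (1.54 and 1.59) lie farthest to the right and Idh2 (-0.80 and -0.88) farthest to the left.

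Hexokinases trap glucose in the cell as glucose 6-phosphate. Hk2 (GRCm38.p6, chromosome 6, 82725025 to 82774454), the isoenzyme that is induced by growth and hypoxia signals in many tissues, was 4.11, 6.95, 4.15, 6.41 and 5.02 TPM in control centroblasts 1 to 5 and 9.60, 11.7, 11.8, 10.7 and 8.58 in control centrocytes. Mutant libraries held 8.16, 4.43, 5.07, 3.04 and 2.64 TPM in centroblasts and 11.6, 14.9, 18.3, 10.7 and 12.5 in centrocytes. No centrocyte library overlapped the centroblasts of either genotype. The log2 fold change was 0.87 ± 0.21 (SE, adjusted p = 0.00308, limma) in controls and 1.42 ± 0.21 (adjusted p = 1.07e-05) in mutants. Hk1, the housekeeping isoenzyme, was 25.8 ± 4.47 TPM in control centroblasts and 31.9 ± 3.29 in control centrocytes (log2 fold change 0.30, adjusted p = 0.0926). In mutants it was 0.54 higher in centrocytes (adjusted p = 0.00205), and 0.19 with median-of-ratios scaling (adjusted p = 0.117). Hk2 accounted for 17.0% ± 2.24 of hexokinase RNA (Hk1 and Hk2) in control centroblasts, 24.7% ± 2.13 in control centrocytes, and 14.0% ± 3.77 and 25.2% ± 2.97 in mutants. This ratio within a library does not depend on the scaling, and the 10 centrocyte libraries (21.2% to 28.9%) all lay above the 10 centroblast libraries (9.77% to 20.6%).

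The next steps rearrange glucose 6-phosphate, commit it through phosphofructokinase and split it with aldolase into triose phosphates. Aldoc (chromosome 11, 78323073 to 78327781), an aldolase known best from brain, was 14.7, 11.3, 11.8, 13.3 and 14.0 TPM in control centroblasts and 46.3, 41.8, 54.9, 50.7 and 46.1 in control centrocytes. The mutant levels were 10.9, 9.43, 10.9, 11.7 and 11.4 TPM, and 33.5, 27.9, 42.4, 43.5 and 53.7. Every centrocyte library was above every centroblast library, with a log2 fold change of 1.81 ± 0.14 in controls (adjusted p = 5.52e-09, limma) and 1.76 ± 0.14 in mutants (adjusted p = 2.92e-09). Aldoa, the abundant aldolase, was 668 ± 89.9 TPM in control centroblasts and 676 ± 49.3 in control centrocytes (log2 fold change 0.02, adjusted p = 0.893). Aldoc thus supplied 6.66% ± 0.959 of aldolase RNA in control and 4.97% ± 1.04 in mutant centrocytes, against 1.93% ± 0.297 and 1.33% ± 0.201 in centroblasts.

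The other genes of these steps moved less. In controls none of Gpi1 (phosphoglucose isomerase; log2 fold change -0.08), Pfkl (0.23), Pfkm (-0.18), Pfkp (0.12) and Tpi1 (triose phosphate isomerase; -0.22) passed the test. In mutants Pfkp was higher by 0.29 (adjusted p = 0.0326) and Tpi1 lower by 0.44 on the log2 scale (log2 fold change -0.44, adjusted p = 0.00508). Pfkp lay below the median of all genes (0.34), its sign turned with median-of-ratios scaling (-0.06), and it was 0.11 without centroblast mutants 4 and 5 (adjusted p = 0.306). Tpi1 was 615 to 654 TPM in centroblast mutants 1 to 3 and 842 and 1006 in centroblast mutants 4 and 5. Without those 2 libraries its log2 fold change was -0.22 (adjusted p = 0.0838). With median-of-ratios scaling Gpi1, Aldoa and Tpi1 passed as lower in mutant centrocytes.

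From triose phosphate to pyruvate no gene passed between the zones in controls. The smallest adjusted p in controls belonged to Pgk1, phosphoglycerate kinase, which makes the first ATP of the pathway. It was 70.4, 47.4, 54.1, 52.4 and 46.8 TPM in control centroblasts and 57.5, 45.5, 41.4, 46.9 and 43.3 in control centrocytes. The groups overlapped, and the log2 fold change of -0.20 ± 0.11 did not pass (adjusted p = 0.171). In mutants Pgk1 was 48.3, 60.7, 61.6, 54.0 and 55.3 TPM in centroblasts and 45.8, 45.6, 47.9, 45.3 and 47.0 in centrocytes. Here every centrocyte library was lower (log2 fold change -0.26, adjusted p = 0.0416, and 0.0554 without centroblast mutants 4 and 5). Gapdh (0.14 in controls, 0.24 in mutants), Pgam1, phosphoglycerate mutase (-0.11 and -0.08), and Pkm, pyruvate kinase (-0.13 and -0.18), did not pass in either genotype. With median-of-ratios scaling Pgam1 and Pkm passed as lower in mutant centrocytes.

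Ldha, the lactate dehydrogenase subunit that favours lactate formation, was among the genes with the least zone difference. In control centroblasts it was 1067, 724, 819, 856 and 767 TPM and in control centrocytes 995, 774, 765, 896 and 784. Their ranges lay almost on top of each other, with a log2 fold change of -0.00 ± 0.11 (adjusted p = 0.995). In mutants it was -0.13 ± 0.11 (adjusted p = 0.306), and -0.48 with median-of-ratios scaling (adjusted p = 0.025).

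Phosphofructokinase is set by fructose 2,6-bisphosphate, which the bifunctional enzymes Pfkfb3 and Pfkfb4 make and break down. Pfkfb4 (chromosome 9, 108988272 to 109032236) was 1.82, 3.90, 4.14, 3.78 and 2.85 TPM in control centroblasts and 4.65, 5.90, 8.54, 5.91 and 7.67 in control centrocytes. Mutant centroblasts and centrocytes held 2.35, 2.21, 2.23, 3.23 and 0.942 TPM, and 6.06, 5.35, 6.61, 8.17 and 6.49. The groups did not overlap in either genotype (log2 fold change 0.82 ± 0.20, adjusted p = 0.00404 in controls, and 1.27 ± 0.20, adjusted p = 2.6e-05 in mutants). Pfkfb3 (chromosome 2, 11471430 to 11554071), whose kinase activity exceeds its phosphatase activity, was 16.6 ± 1.21 TPM in control centroblasts and 27.3 ± 3.79 in control centrocytes (log2 fold change 0.68 ± 0.21, adjusted p = 0.0192, and 0.0575 without centrocyte control 3). In mutants the log2 fold change was 1.18 ± 0.21 (adjusted p = 9.49e-05) and 0.70 without centroblast mutants 4 and 5, where Pfkfb3 was 7.64 and 6.45 TPM against 16.9 to 18.3 in the other 3.

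Pyruvate enters the citrate cycle through pyruvate dehydrogenase (Pdha1, Pdhb and Dlat encode parts of it), which the kinases Pdk1 and Pdk3 switch off. None of the 5 genes passed in controls. Pdhb had the smallest adjusted p there: it was 144, 131, 132, 129 and 132 TPM in control centroblasts and 120, 111, 108, 119 and 115 in control centrocytes. The groups did not overlap, yet the log2 fold change of -0.22 ± 0.09 missed the threshold (adjusted p = 0.0812), and it passed with median-of-ratios scaling (-0.36, adjusted p = 0.0032). In mutants Pdhb was 125, 143, 152, 139 and 95.6 TPM, and 113, 119, 108, 115 and 112, with centroblast mutant 5 below all centrocytes (log2 fold change -0.19, adjusted p = 0.0862, and -0.30, adjusted p = 0.00111, without centroblast mutants 4 and 5). Pdha1 (0.27, adjusted p = 0.0493), Dlat (0.45, adjusted p = 0.00106) and Pdk1 (0.38, adjusted p = 0.0336) were higher in mutant centrocytes. None of them passed with median-of-ratios scaling (-0.08, 0.12 and 0.05). Centroblast mutants 4 and 5 were the lowest libraries for each: Pdk1 was 13.5 and 10.3 TPM there and 18.8 to 19.6 in mutants 1 to 3, and Pdha1 was 125 and 94.4 against 147 to 165. Without these 2 libraries Dlat still passed (0.30, adjusted p = 0.00761), and Pdha1 (0.06, adjusted p = 0.573) and Pdk1 (0.12, adjusted p = 0.427) did not. Pdk3 was 100 ± 2.74 TPM in control centroblasts and 99.8 ± 6.93 in control centrocytes, and its log2 fold change in mutants was 0.02. It passed as lower in mutant centrocytes with that scaling (-0.33) and without centroblast mutants 4 and 5 (-0.22).

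Oxygen sensing rests on Hif1a, on the prolyl hydroxylases Egln1 and Egln3 that mark its protein, and on Vhl, which recognises the mark and has the protein destroyed. Vhl (chromosome 6, 113623994 to 113631634) was 53.2, 50.1, 58.7, 50.4 and 57.2 TPM in control centroblasts and 43.7, 41.1, 43.0, 43.2 and 42.5 in control centrocytes. All centrocyte libraries were lower, with a log2 fold change of -0.33 ± 0.12 (adjusted p = 0.0362), a call that remained in 13 of 20 fits that each left out 1 library. The fits that lost it left out centroblast control 1, 3 or 5 or centrocyte control 2, 3, 4 or 5. Fits without a mutant library, which does not enter the control means, all kept it. In mutants Vhl was 47.4, 56.5, 45.2, 41.3 and 30.6 TPM, and 44.0, 35.2, 41.2, 42.2 and 42.0. There centroblast mutant 5 was the lowest of all libraries, and the log2 fold change was -0.09 (adjusted p = 0.531), or -0.27 without centroblast mutants 4 and 5 (adjusted p = 0.0131). Hif1a was 95.1 ± 18.4 TPM in control centroblasts and 111 ± 5.39 in control centrocytes (log2 fold change 0.24, adjusted p = 0.191). In mutants Hif1a was higher by 0.54 (adjusted p = 0.00212) and Egln1 by 0.57 (adjusted p = 0.00157), and neither passed with median-of-ratios scaling (0.19 and 0.25). Hif1a was 68.8 and 61.9 TPM in centroblast mutants 4 and 5 and 100.3 to 111 in mutants 1 to 3. Without libraries 4 and 5 the log2 fold change was 0.28 for Hif1a (adjusted p = 0.0338) and 0.45 for Egln1 (adjusted p = 0.0102). HIF-1 alpha is set mainly by the stability of its protein, which RNA does not measure.

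Ddit4 and Bnip3 are known as genes induced by low oxygen: Ddit4 restrains the growth kinase mTORC1, and Bnip3 takes part in the removal of mitochondria. Ddit4 (chromosome 10, 59949675 to 59951770) was 12.5, 14.8, 23.8, 18.7 and 22.0 TPM in control centroblasts and 44.4, 51.4, 71.7, 50.3 and 55.6 in control centrocytes. For mutants the values were 19.7, 15.5, 23.1, 11.5 and 12.0 TPM, and 47.3, 38.7, 52.1, 48.0 and 64.7. The lowest centrocyte library exceeded the highest centroblast library in both genotypes (log2 fold change 1.54 ± 0.19, adjusted p = 4.17e-06 in controls, and 1.59 ± 0.19, adjusted p = 1.07e-06 in mutants). Egln3, with its low levels given below, differed by -0.35 in controls and 0.18 in mutants, neither of which passed. In controls all its centrocyte libraries (0 to 0.166 TPM) lay below all its centroblast libraries (0.221 to 0.655). Bnip3 did not pass either: it was 9.58 ± 2.78 TPM in control centroblasts and 8.31 ± 1.76 in control centrocytes (log2 fold change -0.17, adjusted p = 0.51).

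In the citrate cycle 3 of 8 genes were lower in control centrocytes and none was higher, against 9.48% and 21.2% of all genes. Idh2 (chromosome 7, 80094845 to 80118608), the mitochondrial isocitrate dehydrogenase that makes NADPH, was 132, 110, 128, 134 and 133 TPM in control centroblasts and 86.1, 66.5, 64.7, 73.9 and 71.98 in control centrocytes. In mutants it was 138, 180, 163, 141 and 104 TPM, and 69.3, 96.2, 83.3, 72.7 and 68.7. All centrocyte libraries were below all centroblast libraries (log2 fold change -0.80 ± 0.13, adjusted p = 5.88e-05 in controls, and -0.88 ± 0.13, adjusted p = 8.24e-06 in mutants). Fh1 (chromosome 1, 175601378 to 175625635), fumarase, differed by -0.47 ± 0.09 in controls (adjusted p = 0.000688) and by -0.35 ± 0.09 in mutants (adjusted p = 0.00334). Mdh2 (chromosome 5, 135778649 to 135790386), the mitochondrial malate dehydrogenase that follows fumarase, was 538 ± 47.1 TPM in control centroblasts and 411 ± 19.2 in control centrocytes (log2 fold change -0.38 ± 0.07, adjusted p = 0.000164). In mutants it was 512 ± 24.6 and 424 ± 8.79 TPM (-0.27 ± 0.07, adjusted p = 0.00141). Its cytosolic counterpart Mdh1, 602 ± 25.0 and 583 ± 32.1 TPM in controls, did not pass (-0.05, adjusted p = 0.718).

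With all libraries and without median-of-ratios scaling none of the remaining citrate cycle members passed as lower in centrocytes. Cs, citrate synthase (-0.09 in controls, 0.15 in mutants), Ogdh of the oxoglutarate dehydrogenase complex (-0.06 and 0.19) and Sucla2, a subunit of succinyl-CoA synthetase (-0.08 and 0.04), did not pass in either genotype. Idh3a, a subunit of the NAD-dependent isocitrate dehydrogenase, was higher in mutant centrocytes by 0.30 (adjusted p = 0.00653), and -0.05 with median-of-ratios scaling. With that scaling Cs passed as lower in centrocytes of both genotypes, and Sucla2 and Mdh1 in those of mutants. Without centroblast mutants 4 and 5, and without that scaling, Mdh1 also passed as lower in mutant centrocytes. The contrast of these genes with Idh2 thus depended on the scaling, and for Mdh1 in mutants also on those libraries. The summed TPM of the 8 genes was 2394 ± 62.9 in control centroblasts and 2056 ± 81.7 in control centrocytes, and 2150 ± 217 and 1974 ± 29.3 in mutants.

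**Figure D3:**
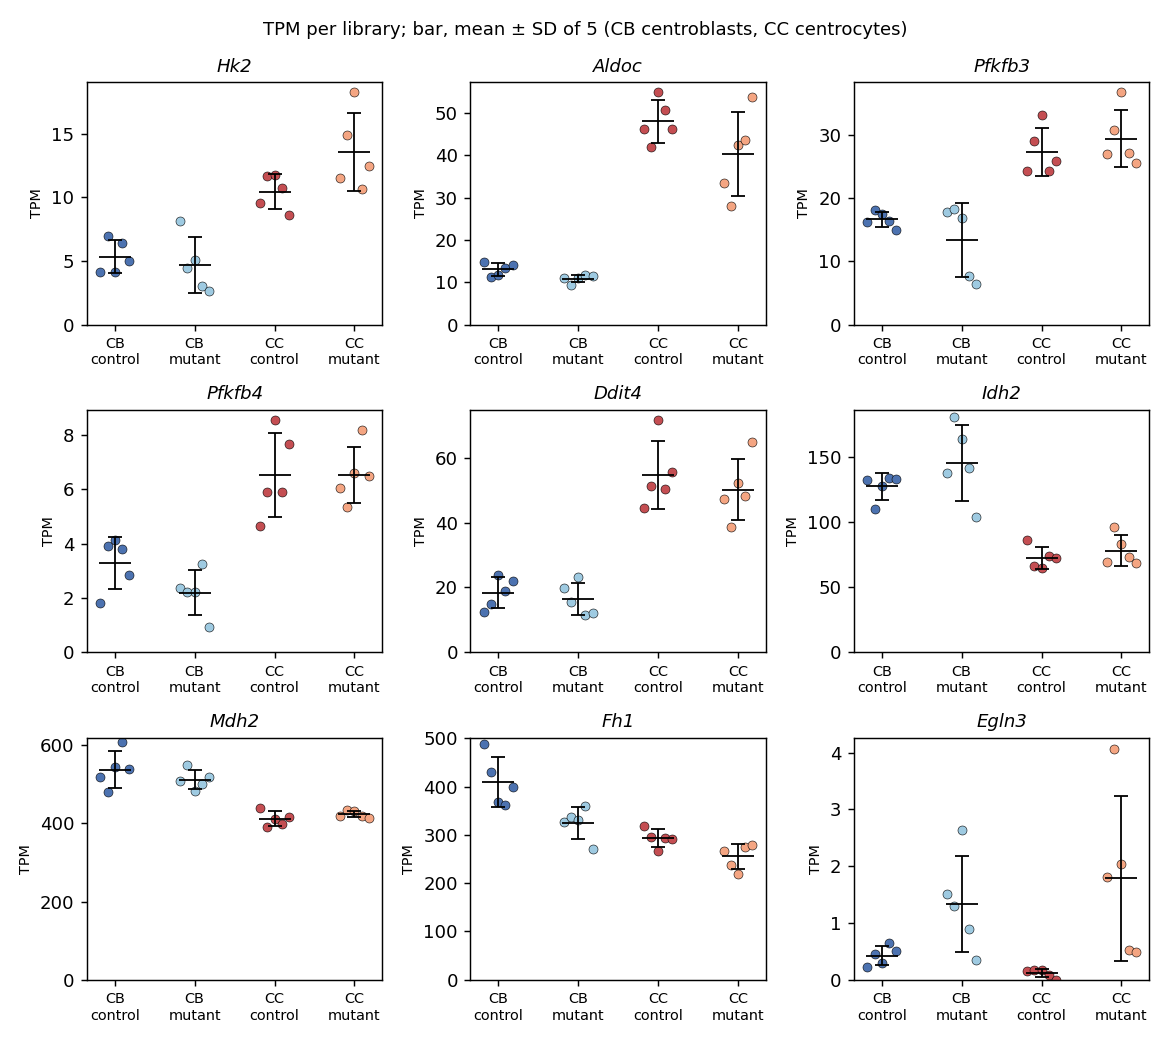
TPM of 9 genes in each of the 20 libraries (points), with the mean ± SD of 5 per group; each panel starts at 0, CB stands for centroblasts and CC for centrocytes. For the first 6 genes the 5 centrocyte libraries of a genotype are clear of its 5 centroblast libraries. Egln3 separates the genotypes in centrocytes (0 to 0.166 TPM in controls, 0.494 to 4.06 in mutants). In controls it also separates the zones (0.221 to 0.655 TPM in centroblasts).

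Markers of other cells also differed between the zones. Of 9 tested macrophage and monocyte markers 8 were higher in centrocytes in each genotype, with summed levels of 46.0 to 65.6 TPM in control centroblasts and 112 to 234 in control centrocytes, and 42.2 to 85.9 and 89.1 to 220 in mutants. None of the 10 markers found was at 0 in all libraries of a group. All 6 naive B cell markers were higher in centrocytes in both genotypes (189 to 245 and 573 to 845 TPM in controls, 108 to 226 and 750 to 889 in mutants), none at 0. Of the T cell markers the Cd3 genes and Cd4 were at most 2.13 TPM in every library, Cd3e and Cd3g being at 0 in some, and Lck, which B cells can also express, made up most of the sum (99.9 to 230 TPM in control centroblasts and 177 to 293 in control centrocytes). Both tested T cell markers were higher in control centrocytes and neither passed in mutants. Of 5 plasma cell markers 2 were higher and 1 lower in centrocytes in each genotype. The immunoglobulin joining chain gene Igj, the most abundant of them, was 1311 ± 123 TPM in control centroblasts and 705 ± 91.7 in control centrocytes. The part of such cells in the zone differences was not tested, and in bulk samples fewer cells of a type and less RNA per cell cannot be told apart.

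Genes of the same pathways outside the list were counted by role. Of 54 tested (71 found), 11 were higher and 10 lower in control centrocytes, against 21.2% and 9.48% of all genes, and 21 and 7 in mutants, against 48.8% and 12.6%. With median-of-ratios scaling 9 were higher and 19 lower in controls (18.2% and 17.4% of all genes), and 14 and 21 in mutants (29.9% and 28.6%). The counts by role that follow are for controls without that scaling and are read against the same 21.2% and 9.48%. Glucose and lactate carriers held 3 of 7 higher and none lower in controls: Slc2a6, a glucose transporter family member, was 9.47 ± 1.45 TPM in centroblasts and 20.4 ± 2.41 in centrocytes (log2 fold change 1.03, adjusted p = 3.28e-05), and the glucose transporter gene Slc2a3 (0.57) and the lactate carrier gene Slc16a1 (0.46) passed too. Of the other hypoxia-inducible genes 5 of 15 were higher and 1 lower. Bhlhe40, a transcription factor that also responds to immune activation, was 9.85 ± 3.76 and 63.1 ± 18.2 TPM (2.59, adjusted p = 1.48e-06), and Ndrg1 (0.87) and Ero1l (0.56) were among them. In the citrate cycle 6 of 15 other genes were lower and none higher. They included Idh3g (497 ± 17.4 to 361 ± 12.4 TPM, -0.46, adjusted p = 5.79e-06), the succinate dehydrogenase genes Sdhb (656 ± 53.2 to 389 ± 36.2, -0.75, adjusted p = 2.7e-05) and Sdhc (-0.39, adjusted p = 0.000788), and Suclg2 (-0.65, adjusted p = 0.000396). In both genotypes and with both scalings Adpgk, Slc2a3, Slc2a6, Slc16a1, Ndrg1, Bhlhe40 and Ero1l were higher, and Bpgm, Idh3g, Suclg2, Sdhb, Sdhc and Sdhd lower.

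Promoters are shown for 4 genes, Aldoc and Ddit4, higher in centrocytes, and Idh2 and Mdh2, lower, which of the 35 members had the smallest adjusted p between the zones in controls, because HIF-1 binds DNA at a short core, ACGTG or GCGTG, in the hypoxia response elements of its targets. The 250 bases before the start given by RefSeq (GRCm38.p6, the assembly of mm10) are printed 5′ to 3′ on the strand of the gene, with capitals at each match of ACGTG or GCGTG read on either strand. The start used for Idh2 lies inside the span of the gene, which has another start further upstream.
Aldoc, chr11:78322823-78323072, plus strand: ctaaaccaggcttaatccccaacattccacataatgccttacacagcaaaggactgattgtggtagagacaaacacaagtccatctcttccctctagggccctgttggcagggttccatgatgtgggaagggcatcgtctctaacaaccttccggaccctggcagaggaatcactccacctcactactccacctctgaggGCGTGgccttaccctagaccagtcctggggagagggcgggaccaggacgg
Ddit4, chr10:59951771-59952020, minus strand: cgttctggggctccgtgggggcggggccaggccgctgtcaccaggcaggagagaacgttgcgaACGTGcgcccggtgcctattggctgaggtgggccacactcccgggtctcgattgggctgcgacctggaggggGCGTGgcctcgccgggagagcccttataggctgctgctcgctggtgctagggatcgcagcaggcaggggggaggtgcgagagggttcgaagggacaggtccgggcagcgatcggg
Idh2, chr7:80115351-80115600, minus strand: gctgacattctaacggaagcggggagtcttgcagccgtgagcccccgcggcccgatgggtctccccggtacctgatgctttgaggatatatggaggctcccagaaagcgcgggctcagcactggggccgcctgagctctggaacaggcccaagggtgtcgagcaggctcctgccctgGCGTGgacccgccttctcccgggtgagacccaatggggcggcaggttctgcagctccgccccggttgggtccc
Mdh2, chr5:135778399-135778648, plus strand: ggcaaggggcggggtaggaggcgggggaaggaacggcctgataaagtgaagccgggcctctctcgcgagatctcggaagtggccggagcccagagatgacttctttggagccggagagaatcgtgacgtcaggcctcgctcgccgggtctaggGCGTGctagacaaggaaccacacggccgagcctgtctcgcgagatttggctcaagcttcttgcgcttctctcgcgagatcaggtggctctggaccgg
Ddit4 holds 2 matches and the other 3 promoters 1 each, so the core occurs in the genes that were higher in centrocytes and in those that were lower. Among the 36 members with a listed promoter, 27 (75%) held ACGTG or GCGTG, as did 57.8% of 8116 promoters of other tested genes and 38.6% of all 27025. The palindrome CACGTG, which contains ACGTG on both strands and is the E-box bound by Myc, was in 4 of 36 (11.1%), against 8.75% and 6.05%. Of the 5 higher genes Hk2 has 2 matches, and Pfkfb3 and Pfkfb4 have 1 each, and Fh1 among the lower ones has 1. The starts used for Pfkfb3 and Pfkfb4 also lie inside the spans of their genes. A match is a description of letters, not of binding.

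The second comparison asks what Myd88 L252P changed in each zone. Few of these genes passed: in centroblasts 1 of 35 genes passed, Fh1, which was lower in mutants, against 4.29% of all genes (0.905% higher, 3.38% lower). In centrocytes 1 passed, Egln3, which was higher, against 1.20% of all genes (0.896% higher, 0.307% lower). The median log2 fold change was -0.07 over the 35 and -0.16 over all genes in centroblasts, and 0.07 and 0.02 in centrocytes. At an unadjusted p under 0.05 there were 11 in centroblasts (5 higher, 6 lower) and 4 in centrocytes (3 higher, 1 lower). Over all genes 30.3% reached that level in centroblasts (5.20% higher, 25.1% lower) and 9.61% in centrocytes (6.25% higher, 3.35% lower). A missing call does not show that a level was the same, since the standard errors of these log2 fold changes reached 0.28 (Egln3). With median-of-ratios scaling no member passed in centroblasts (5.43% of all genes, 2.49% higher and 2.94% lower) and Egln3 alone in centrocytes (1.75%, 1.30% and 0.448%).

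**Figure D4:**
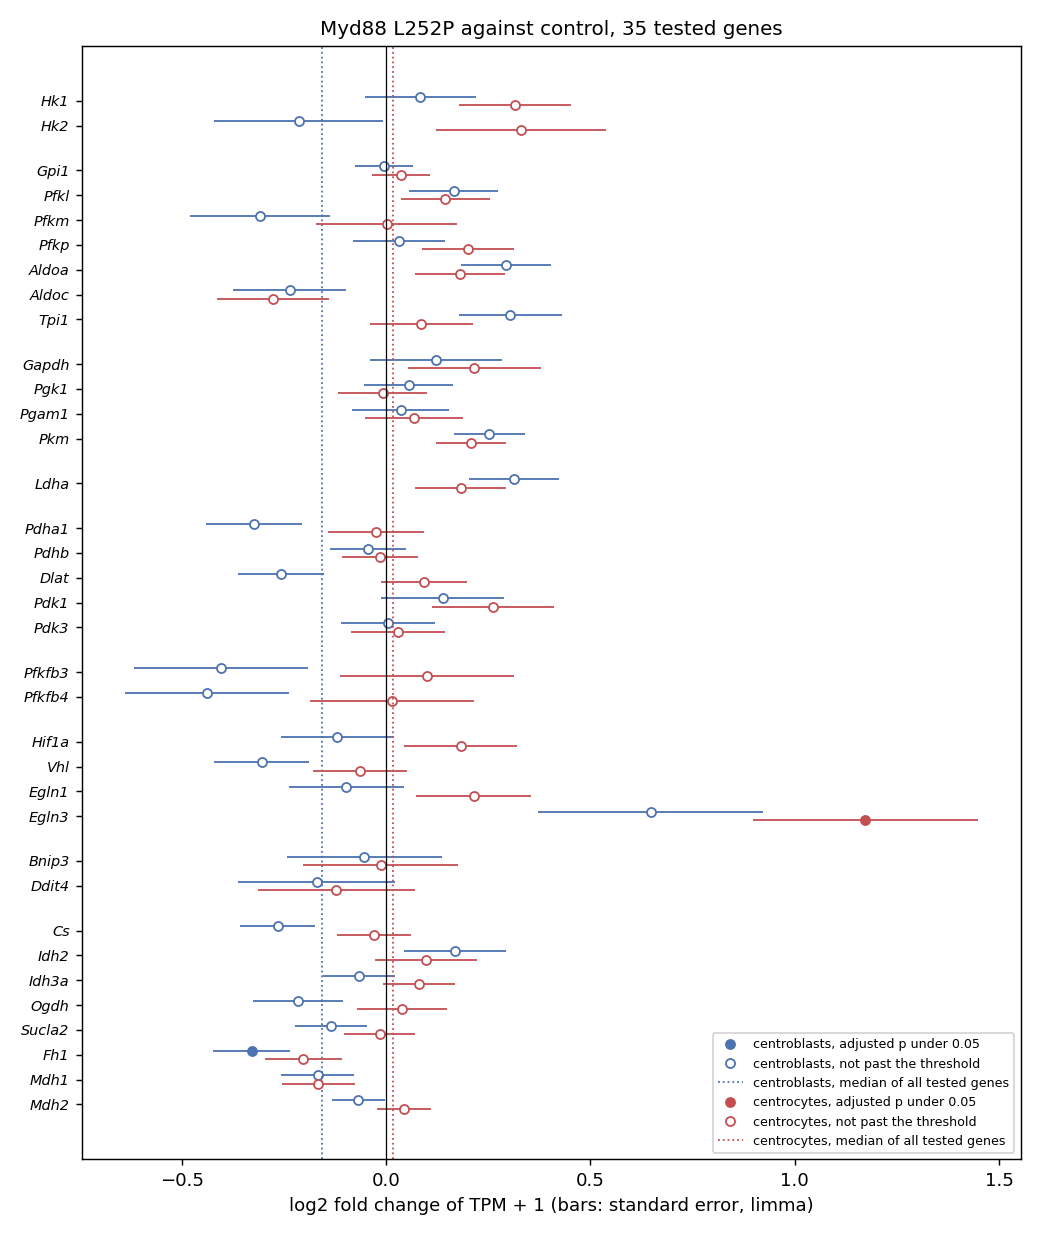
Log2 fold change of TPM + 1, Myd88 L252P against control, for the 35 tested genes by step (rows), in centroblasts (blue) and centrocytes (red); bars are limma standard errors, filled points have an adjusted p under 0.05 and dotted lines mark the median of all tested genes (-0.16 and 0.02). Only Fh1 in centroblasts (-0.33) and Egln3 in centrocytes (1.17) are filled.

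Egln3 (chromosome 12, 54178981 to 54203874), a prolyl hydroxylase that is itself induced by HIF, was 0.150, 0.165, 0.166, 0.0895 and 0 TPM in control centrocytes and 1.82, 4.06, 2.04, 0.531 and 0.494 in mutant centrocytes. The 2 groups did not overlap, although all values were low and mutants 4 and 5 lay closest to the controls. The log2 fold change was 1.17 ± 0.28 (adjusted p = 0.0344, limma). It was 0.221, 0.453, 0.297, 0.655 and 0.500 TPM in control and 1.52, 1.30, 2.63, 0.895 and 0.348 in mutant centroblasts. There the ranges overlapped and the log2 fold change of 0.65 ± 0.28 did not pass (adjusted p = 0.125). The libraries of at least 1 TPM were all mutant, so Egln3 entered the test through that genotype alone, and its call says less than that of an abundant gene. It remained with no filter and with median-of-ratios scaling (1.10, adjusted p = 0.0267), was lost when only the centrocytes were fitted, and remained in 12 of 20 fits that left out 1 library. Those 12 left out a centroblast library, which does not enter the centrocyte means, or centrocyte mutant 4 or 5. The call was lost without any 1 of the 5 centrocyte controls or of centrocyte mutants 1, 2 and 3. The difference between the zones in this effect, 0.53 ± 0.39, did not pass (adjusted p = 0.471).

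Fh1 was 488, 430, 368, 363 and 399 TPM in control and 326, 337, 331, 361 and 271 in mutant centroblasts. The groups were apart by the gap between 363 and 361. The log2 fold change was -0.33 ± 0.09 (adjusted p = 0.0493), and -0.14 with median-of-ratios scaling (adjusted p = 0.452) and -0.30 without centroblast mutants 4 and 5 (adjusted p = 0.0863); the call remained in 3 of 20 fits that left out 1 library. In centrocytes Fh1 was 319, 296, 266, 293 and 291 TPM in controls and 267, 237, 218, 275 and 280 in mutants, which overlapped (-0.20 ± 0.09, adjusted p = 0.485).

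Among the glycolytic enzymes the most abundant genes had higher means in mutants, and none passed. Ldha in mutant centroblasts was 858, 1001, 947, 1204 and 1254 TPM, against the control values given above, with a log2 fold change of 0.31 ± 0.11 (adjusted p = 0.0857). Pkm was 725, 711, 700, 849 and 690 TPM in control and 800, 809, 776, 952 and 1058 in mutant centroblasts (0.25 ± 0.09, adjusted p = 0.0806). In both genes libraries 4 and 5 were the highest. Without these 2 libraries the log2 fold change was 0.15 for Ldha and 0.12 for Pkm, and with median-of-ratios scaling 0.50 and 0.44. In centrocytes Ldha was 883, 994, 911, 948 and 1026 TPM in mutants (0.18 ± 0.11, adjusted p = 0.731). Pkm was 741, 656, 627, 654 and 664 TPM in control and 708, 828, 828, 734 and 765 in mutant centrocytes, where mutants 1 and 4 fell within the control range (0.21 ± 0.09, adjusted p = 0.383). The summed TPM of the glycolytic enzymes and lactate dehydrogenases was 3236 to 3964 in control centroblasts, 3669 to 3852 in centroblast mutants 1 to 3, and 4522 and 5152 in centroblast mutants 4 and 5. In centrocytes it was 3174 to 3850 in controls and 3489 to 3917 in mutants.

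Hk1 had no overlap between the genotypes in centrocytes. It was 27.6, 36.2, 33.6, 30.0 and 32.0 TPM in control and 41.3, 39.5, 44.9, 36.2 and 37.4 in mutant centrocytes, the lowest mutant library lying barely above the highest control. The log2 fold change of 0.32 ± 0.14 did not pass (adjusted p = 0.41). Such separation was seen in centrocytes for 2 of the 35 genes, Hk1 and Egln3, both higher in mutants, and for 4.63% of all genes (2.63% higher and 1.99% lower). In centroblasts it was seen for 1 gene, Fh1, which was lower, and for 3.74% of all genes (0.755% higher and 2.99% lower). In centroblasts Hk1 was 19.97, 26.8, 22.7, 30.9 and 28.8 TPM in control and 35.6, 29.7, 24.4, 28.1 and 20.1 in mutant libraries, which overlapped (0.08 ± 0.14, adjusted p = 0.686).

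Cs was 375, 386, 385, 414 and 381 TPM in control and 377, 357, 343, 317 and 237 in mutant centroblasts. Centroblast mutant 5 was far below the rest, and the log2 fold change of -0.27 ± 0.09 (adjusted p = 0.0794) became -0.11 without libraries 4 and 5. In centrocytes Cs was 376, 356, 345, 365 and 385 TPM in controls and 354, 352, 379, 355 and 349 in mutants (-0.03 ± 0.09, adjusted p = 1). Of the zone-dependent genes, Hk2 (-0.21 in centroblasts, 0.33 in centrocytes), Aldoc (-0.24 and -0.28), Pfkfb3 (-0.40 and 0.10), Pfkfb4 (-0.44 and 0.01), Ddit4 (-0.17 and -0.12), Idh2 (0.17 and 0.10) and Mdh2 (-0.07 and 0.04) did not pass for genotype in either zone. Vhl, with the library values given above, differed by -0.30 in centroblasts (adjusted p = 0.0983) and by -0.06 in centrocytes. Other members were not called: Gpi1, Pfkl, Pfkm, Pfkp, Aldoa, Tpi1, Gapdh, Pgk1, Pgam1, Pdha1, Pdhb, Dlat, Pdk1, Pdk3, Hif1a, Egln1, Bnip3, Idh3a, Ogdh, Sucla2 and Mdh1 lay between -0.32 (Pdha1) and 0.30 (Tpi1) in centroblasts, and between -0.17 (Mdh1) and 0.26 (Pdk1) in centrocytes.

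The count in centroblasts turned on single libraries. Without centroblast mutant 1, 10 members passed, 4 higher (Aldoa, Tpi1, Pkm and Ldha) and 6 lower (Pdha1, Dlat, Vhl, Cs, Ogdh and Fh1). Over all genes 27.2% passed in that fit (3.71% higher and 23.5% lower), so the count of members was near the background. That fit leaves 2 of 4 mutant libraries from the pair with the high ribosomal protein share. Without libraries 4 and 5, Pdk3 alone passed (0.24, adjusted p = 0.0336), upward, against 3.57% of all genes (2.13% higher and 1.44% lower). The part of library composition in these values was not tested.

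Whether the genotype effect differed between the zones was tested directly. None of the 35 genes passed with limma, against 0.0176% of all genes. An unadjusted p under 0.05 was reached by 1 member, against 11.6% of all genes (9.72% with a positive and 1.89% with a negative difference). The estimate for Hk2 was 0.54 ± 0.29 (adjusted p = 0.403), for Pfkfb3 0.50 ± 0.30 (adjusted p = 0.408) and for Dlat 0.35 ± 0.15 (adjusted p = 0.403). The larger zone differences of Hk2, Pfkfb3 and Pfkfb4 in mutants than in controls are therefore not shown to differ between genotypes.

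Of the 54 other pathway genes 5 passed for genotype in centroblasts (1 higher and 4 lower, against 4.29% of all genes) and none in centrocytes (against 1.20%), where 2 had an unadjusted p under 0.05 by limma. With median-of-ratios scaling 8 passed in centroblasts (4 higher and 4 lower, against 5.43%) and none in centrocytes, and without centroblast mutants 4 and 5 there were 6 (4 higher and 2 lower, against 3.57%) and 1, Mif (0.37, adjusted p = 0.00643). Mif, a cytokine gene that HIF can induce, was 201 ± 17.2 TPM in control and 294 ± 82.6 in mutant centroblasts (log2 fold change 0.51 ± 0.12, adjusted p = 0.0252); library 5 held 441 and the other 4 mutants 248 to 270. Every mutant library lay above every control (186 to 229). Without libraries 4 and 5 the log2 fold change was 0.37 (adjusted p = 0.0161). In centrocytes Mif was 260 ± 24.2 and 336 ± 28.8 TPM (0.37, adjusted p = 0.192). Idh1, the cytosolic isocitrate dehydrogenase, was 27.2 ± 0.937 TPM in control and 19.1 ± 2.05 in mutant centroblasts (-0.50 ± 0.14, adjusted p = 0.0461, with -0.32 after median-of-ratios scaling, adjusted p = 0.232, and -0.54 without libraries 4 and 5, adjusted p = 0.055). The gene listed as Pgm1, a phosphoglucomutase, was 33.7 ± 2.76 and 23.4 ± 2.62 TPM (-0.51 ± 0.10, adjusted p = 0.00851); RefSeq gives Pgm1 and Pgm2 as older names of each other, so which of the 2 genes this symbol means is uncertain. Cited2, which limits HIF activity, was 94.3 ± 13.1 and 67.1 ± 13.1 TPM (-0.49, adjusted p = 0.033, and -0.29 without libraries 4 and 5, adjusted p = 0.183). Cited2 did not pass with median-of-ratios scaling. Pgk2, the testis phosphoglycerate kinase, was 0.56 to 1.62 TPM in controls and 0 to 0.231 in mutants (-0.80, adjusted p = 0.0258). Erythroid markers differed along with genotype: 3 of 4 tested were higher in mutant centroblasts and 1 of 4 in mutant centrocytes, with summed levels of 22.8 to 270 and 323 to 808 TPM in control and mutant centroblasts, and 41.6 to 273 and 233 to 580 in centrocytes. Hba-a1 was at 0 in all libraries. Of 6 naive B cell markers 2 were lower in mutant centroblasts and 2 higher in mutant centrocytes. Their part in the genotype values was not tested.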

How the data were processed

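A stranded mRNA kit was used on total RNA, per the labels' protocols. The deposited files give TPM (a level normalised for transcript length and library total) per gene symbol, as the authors computed it. The submitters' processing notes name STAR and mm10, and no source used here gives versions, annotation or counter. TPM keeps no read depth, so the depth is unknown and no counting interval is given. The main test was limma 3.58.1 (R 4.3.3; trend and robust) on log2(TPM + 1) over 11386 genes (1 TPM or more in 5 or more libraries), with 4 group means over 20 libraries, 16 residual degrees of freedom, two-sided, at a Benjamini-Hochberg adjusted p under 0.05. Fold changes on this scale understate changes of low genes. The script was tested on simulated data. Members and lists were chosen with earlier results of these data known. All members were named. Values per library were given for members called or not overlapping for genotype, the 4 smallest adjusted p of each genotype comparison, and the smallest zone adjusted p of each step in controls. Other pathway genes were named if called for genotype or among the 6 smallest zone adjusted p. Alternatives were another pseudocount (0.1), other filters, median-of-ratios scaling, no trend or robust, only the groups compared, a replicate block and leaving out libraries. Positions, promoters and older names are from RefSeq (GRCm38.p6), where all 37 members matched by symbol and 36 had a promoter. Some markers of the germinal centre B cell list are not reported here.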

Additional observations from a re-analysis of the deposited data

Results flagged for a closer look

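Among 148 groups of 5 values (37 genes in 4 groups), 13 had 1 library far from the other 4, with a gap to its nearest neighbour of over 0.71 of the range of the group. Chance marks about 1 in 20 groups. In control centroblasts, library 4 was high for Pfkl (45.2 TPM, others 36.4 to 38.5), Pkm (849, others 690 to 725) and Cs (414, others 375 to 386). Library 1 was high for Pdhb (144, others 129 to 132) and Bnip3 (14.5, others 7.49 to 8.84), and library 2 was low for Idh2 (110, others 128 to 134). In centroblast mutants, library 5 was low for Egln1 (7.35, others 10.8 to 11.5). In centrocyte controls, library 3 was high for Gapdh (16.8, others 13.7 to 14.2). In centrocyte mutants, library 1 was low for Tpi1 (484, others 548 to 564) and library 3 high for Cs (379, others 349 to 355). The other 3 cases are single values above 0 in groups otherwise listed at 0: Eno1 in centroblast mutant 4 (0.104), and Ldhb in centroblast mutant 2 (0.180) and centrocyte mutant 5 (0.342).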

How the results depend on the processing

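The 8 genes Hk2, Aldoc, Pfkfb3, Pfkfb4, Ddit4, Idh2, Fh1 and Mdh2 were picked because they differed between the zones in both genotypes and with both scalings. Their calls with median-of-ratios scaling were therefore fixed by that choice. Under every other alternative run they kept direction and call, except Pfkfb3 in controls without centrocyte control 3. The number of members called for genotype in centroblasts, 1, was 0 with no filter, with median-of-ratios scaling, with no trend or robust and with only the groups compared; leaving out single libraries gave 0 to 10 (10 without centroblast mutant 1 and 2 without centroblast mutant 2). In centrocytes it was 0 with a filter of 5 TPM in 5 libraries, which removes Egln3, and with only the groups compared, and 0 to 1 leaving out libraries (0 without any 1 of the 5 centrocyte controls or of centrocyte mutants 1, 2 and 3). The difference of the genotype effects stayed at 0 in every fit. The count between zones in controls, 9, was 14 without centroblast mutants 4 and 5, a choice made after seeing the data, and 7 to 11 leaving out single libraries (7 without centrocyte control 3); in mutants, 18, it was 14 to 20. Among genes that passed with or without median-of-ratios scaling, that scaling turned the log2 fold change between zones in mutants negative for Pfkp (-0.063), Pdha1 (-0.081), Pdk3 (-0.33), Cs (-0.20), Idh3a (-0.051), Sucla2 (-0.31), Pgm1 (-0.038), Pgm2 (-0.019), Pdhx (-0.20) and Dlst (-0.046). Genes that passed in neither fit are left out of this list, whatever their sign. That of Pdk3 was -0.22 without centroblast mutants 4 and 5. The difference of the effects could not be run with only the groups compared. The cause of these changes was not tested. Replicate numbers were not taken as pairs, since the labels do not say that a number marks a shared mouse. In each genotype 4 of 5 same-numbered centroblast and centrocyte libraries correlated over 0.1 in their deviations from group means. Correlations ran from -0.0168 to 0.259 in controls and from -2.93e-05 to 0.269 in mutants. Their mean was 0.162 in controls and 0.175 in mutants, against -0.0404 and -0.0433 between libraries of unlike numbers. Same-numbered libraries of the 2 zones within a genotype were thus more alike. Between control and mutant centrocytes same-numbered libraries were also more alike, with a mean of 0.113 against -0.0283. Between control and mutant centroblasts they were not (-0.00769 against 0.000907). Pairing through shared mice was not tested. The replicate block was the replicate number for the genotype comparisons, and the number within a genotype for the difference and the zones. With these blocks the counts were 1, 1, 0, 9 and 17. The order is genotype in centroblasts, in centrocytes, their difference, zones in controls and zones in mutants. Over all genes the fits with these blocks called 6.96%, 2.13%, 0.123%, 36.9% and 64.3% in the same order. Fits that left out 1 library called 1.29% to 27.2% of all genes for genotype in centroblasts and 0.404% to 2.08% in centrocytes. Between the zones such fits called 23.2% to 41.5% in controls and 55.3% to 64.5% in mutants. Depth is unknown, so what it limits for low genes such as Egln3 could not be measured.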
